A study of Homo sapiens with 28 samples.

Results

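The asparagine, proline, alanine and cysteine synthesis genes comprised 9 members: ASNS, ALDH18A1, PYCR1, PYCRL, GPT2, GOT1, PCK2, CTH and CBS. They were chosen by name as enzymes of these pathways and their carbon supply, with earlier results of these data known. All 9 were found among the 25369 genes of the deposited count tables. Each of the 9 had enough counts to be tested, as did 14314 genes in all.

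RNA was sequenced from LNCaP, an established human cell line from a metastatic prostate cancer. Each of 7 groups held 4 libraries, and the series' design text describes 4 separate experiments. The p-values therefore measure the spread between repeated cultures of 1 cell line. That spread was estimated for each gene over all 7 groups together, so it also holds the spread of groups outside a comparison. Cells with a non-targeting control siRNA received the solvent DMSO (DMSO siCtrl), tunicamycin at 2.5 µg/mL (TM siCtrl), or that dose together with GSK2606414, an inhibitor of the kinase PERK, at 100 nM (TM PERKi siCtrl). Cells with an siRNA against EIF2AK3, the gene of the kinase PERK (TM siPERK-1 or TM siPERK-3), or against ATF4 (TM siATF4-2 or TM siATF4-3) received tunicamycin alone. All treatments, solvent included, lasted 18 h, and all cells had been transfected with an siRNA. Neither siRNA was paired with a DMSO group, so its effect was measured only under tunicamycin.

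Tunicamycin blocks N-glycosylation, which leaves unfolded proteins in the endoplasmic reticulum. PERK senses this and phosphorylates eIF2α, which lowers overall translation while the mRNA of the transcription factor ATF4 is translated more. ATF4 is known for raising genes of amino acid uptake and synthesis, and several other kinases also act on eIF2α.

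ASNS, asparagine synthetase, makes asparagine from aspartate and glutamine. GOT1, the cytosolic aspartate aminotransferase, interconverts aspartate and oxaloacetate. ALDH18A1 makes the proline precursor pyrroline-5-carboxylate from glutamate, PYCR1 reduces that precursor to proline in mitochondria, and PYCRL is a cytosolic reductase of the same reaction. GPT2 is the mitochondrial alanine aminotransferase, and PCK2 is the mitochondrial enzyme that makes phosphoenolpyruvate from oxaloacetate. CBS joins homocysteine with serine to give cystathionine, which CTH cleaves to release cysteine.

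Library totals ranged from 10794637 to 17253801 counts. The targeted genes followed the labels. ATF4 averaged 1511 ± 37.4 CPM (counts scaled to library size by TMM; mean ± SD, n = 4) in TM siCtrl, 237.3 ± 82.4 in TM siATF4-2 and 114.1 ± 19 in TM siATF4-3. EIF2AK3 averaged 89.2 ± 6.51 CPM in TM siCtrl, 24.61 ± 4 in TM siPERK-1 and 21.48 ± 2.14 in TM siPERK-3, although 781 of its exon bases overlap a gene on the other strand. In DMSO siCtrl, ATF4 averaged 605.4 ± 85.3 CPM and EIF2AK3 30.18 ± 0.742. The PERK siRNAs thus left EIF2AK3 RNA nearer to its unstressed level than the ATF4 siRNAs left ATF4. With the inhibitor, which blocks the kinase and not its RNA, EIF2AK3 stood at 125.1 ± 4.25 CPM. All 9 luminal prostate markers were present in every group, with a summed level of 6170 to 7260 CPM in DMSO siCtrl and 2690 to 4520 CPM in the groups with tunicamycin. Summed basal markers reached 1.49 CPM at most and leukocyte markers 0.655 CPM. The summed fibroblast markers moved in the same direction as most members, at 17.8 to 22.1 CPM without tunicamycin and 32.9 to 39.5 CPM with it, 29.6 to 41.2 CPM when the inhibitor or a PERK siRNA was added and 14.1 to 23.9 CPM when an ATF4 siRNA was. Of these 5 genes COL1A1 made up nearly all of the sum (13.9 to 40.3 CPM), COL1A2 was at 0 in every library and COL3A1, DCN and LUM reached 0.881 CPM at most. The part of such cells in the results was not tested. The endothelial pair summed to 9.71 to 18.9 CPM, most of it VWF (8.74 to 18.3 CPM), with PECAM1 at 1.84 CPM at most. In bulk RNA, fewer cells of a type and less RNA per cell cannot be told apart.

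RefSeq promoter windows (build GRCh38.p14, from 250 bases before a start site to 50 after it) were found for 6 of the 9 members, ASNS, GOT1, ALDH18A1, PCK2, CTH and CBS, with 9 windows in all. PYCR1, PYCRL and GPT2 had none in that table. The letters TGATGNAA, the core of the C/EBP-ATF response element that ATF4 is known to bind with C/EBP partners, were sought on both strands. They occurred in 2 of the 9 member windows and in 3.62% of all 35116 windows. The palindrome TGACGTCA, the cAMP response element, occurred in 0 of the 9 and in 1.85% of all windows. The bases upstream of the start site are shown for both genes with a match and, for contrast, for PCK2, the member with the largest ATF4 siRNA effect, and ALDH18A1, which moved the other way. Capitals mark the TGATGNAA match. In ASNS it is TGATGAAA on the gene's strand, with its first base 68 bases before the start site of the window shown. In GOT1 it is TGATGCAA on the opposite strand, printed here as TTGCATCA, with its first base 198 bases before the start site. PCK2 and ALDH18A1 had no match, which says only that these letters are not in the window. Nor did another ASNS window (upstream bases chr7:97872166-97872415, minus strand, not shown). The segments are chr7:97872409-97872658 (minus strand) for ASNS, chr10:99430625-99430874 (minus strand) for GOT1, chr14:24094061-24094310 (plus strand) for PCK2 and chr10:95656712-95656961 (minus strand) for ALDH18A1.
ASNS: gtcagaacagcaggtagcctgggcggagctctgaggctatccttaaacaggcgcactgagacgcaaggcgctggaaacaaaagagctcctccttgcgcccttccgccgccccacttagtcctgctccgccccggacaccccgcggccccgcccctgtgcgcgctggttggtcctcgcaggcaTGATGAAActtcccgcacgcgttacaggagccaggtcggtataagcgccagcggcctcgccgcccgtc
GOT1: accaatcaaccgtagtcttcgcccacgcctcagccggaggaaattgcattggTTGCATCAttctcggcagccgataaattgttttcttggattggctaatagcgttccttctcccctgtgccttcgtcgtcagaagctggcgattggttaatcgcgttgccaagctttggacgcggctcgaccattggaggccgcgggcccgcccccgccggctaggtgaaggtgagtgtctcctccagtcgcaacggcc
PCK2: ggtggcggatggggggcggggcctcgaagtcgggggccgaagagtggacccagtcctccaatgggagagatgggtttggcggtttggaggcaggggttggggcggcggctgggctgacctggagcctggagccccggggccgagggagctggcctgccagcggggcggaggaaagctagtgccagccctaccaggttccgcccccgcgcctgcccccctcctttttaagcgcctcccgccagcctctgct
ALDH18A1: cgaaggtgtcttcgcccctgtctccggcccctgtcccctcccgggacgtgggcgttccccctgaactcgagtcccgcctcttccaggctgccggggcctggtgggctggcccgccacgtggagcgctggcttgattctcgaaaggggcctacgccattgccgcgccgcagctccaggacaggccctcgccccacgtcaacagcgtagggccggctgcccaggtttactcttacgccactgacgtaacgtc

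By the exon models of the deposited tables (build hg19), ASNS is at chr7:97481429-97501854, GOT1 at chr10:101156627-101190530 and ALDH18A1 at chr10:97365686-97416567, all on the minus strand. PYCR1 is at chr17:79890262-79895204 and PYCRL at chr8:144686083-144691784, also on the minus strand. GPT2 is at chr16:46918308-46965201, PCK2 at chr14:24563340-24573341 and CTH at chr1:70876901-70905534, all on the plus strand. CBS is at chr21:44473301-44496472 on the minus strand. The counts are of exonic reads, and none of the 9 shares exon bases with another gene of the tables.

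Per kilobase of exon, the unstressed cells held most RNA of PYCR1 (136 ± 7.9 CPM per kb) and CBS (129 ± 9.25). ASNS (96.8 ± 3.68) and PCK2 (88 ± 1.48) followed, then ALDH18A1 (63.2 ± 4.02), GOT1 (53.8 ± 0.272) and GPT2 (46.3 ± 3.48). PYCRL (24.7 ± 3.16) and CTH (8.64 ± 0.635) were the lowest. With tunicamycin, PCK2 stood highest at 239 ± 11.3 CPM per kb, ahead of ASNS at 204 ± 7.05 and PYCR1 at 196 ± 12.7. In TM siATF4-3 PYCR1 was again highest at 147 ± 5.19 CPM per kb, while PCK2 had dropped to 20.6 ± 5.31.

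**Figure D1:**
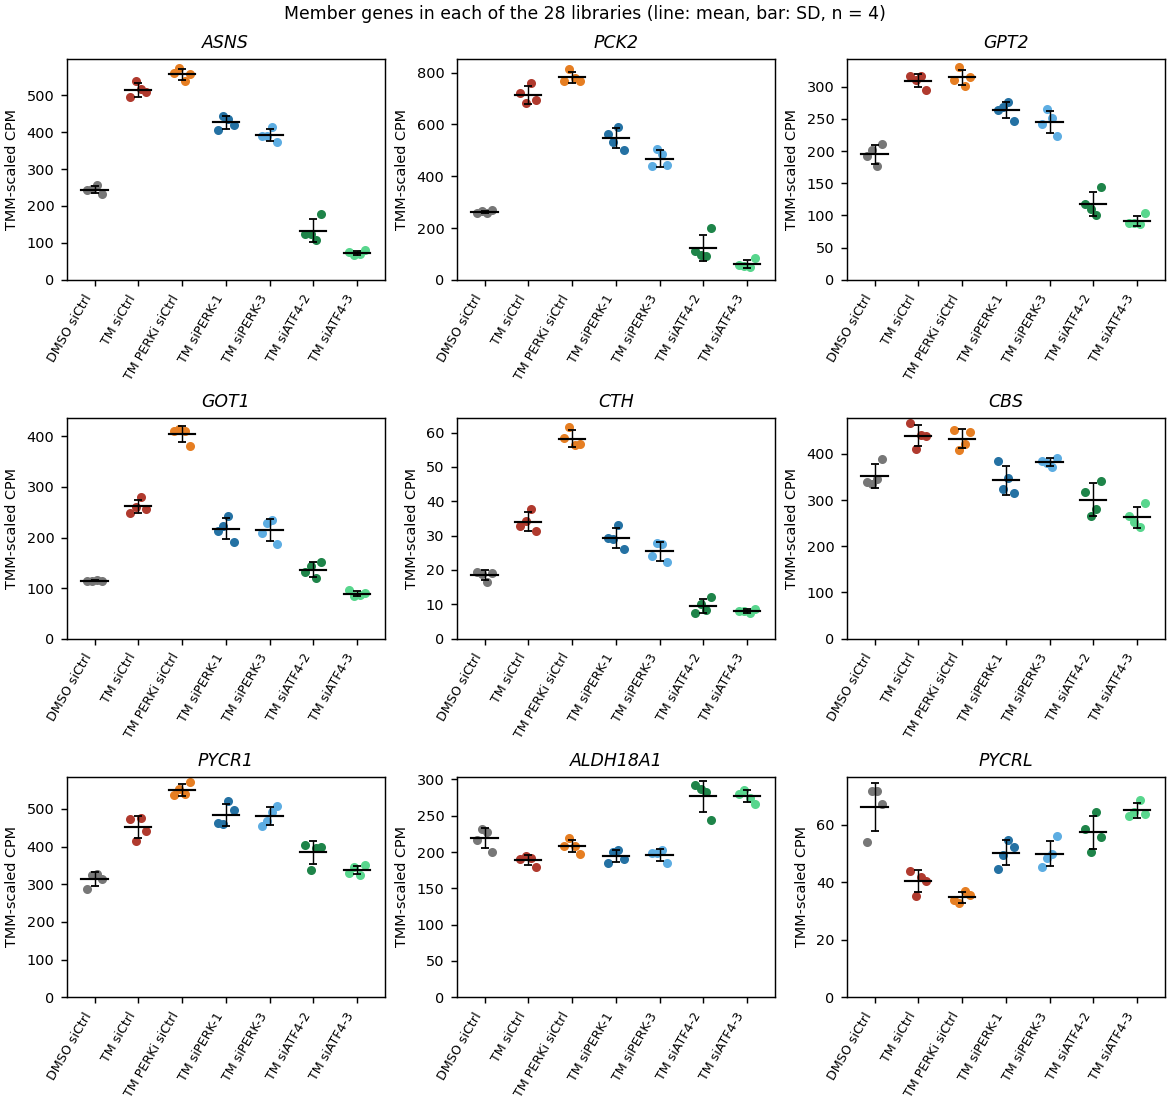
Level of each of the 9 genes (vertical axis, TMM-scaled CPM from 0) in the 4 libraries of each group (points), with the group mean (line) and SD (bar). ASNS, PCK2, GPT2, GOT1 and CTH sit high in the tunicamycin groups with the control siRNA and lowest in TM siATF4-3, whereas ALDH18A1 is highest in both ATF4 siRNA groups.

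ASNS, the asparagine-forming enzyme, rose 2.1-fold with tunicamycin and fell below its unstressed level when ATF4 was silenced. Its level was 243.3, 245, 256.4 and 233.7 CPM in the 4 DMSO siCtrl libraries and 495.3, 537.6, 516.3 and 507.7 in TM siCtrl. It was 124.8, 123.2, 108.2 and 177.9 CPM in TM siATF4-2 and 75.05, 67.69, 69.06 and 79.73 in TM siATF4-3. Every tunicamycin library with the control siRNA was above every DMSO library, and every ATF4 siRNA library was below them. The log2 change with tunicamycin was 1.07 ± 0.09 (SE; adjusted p = 2.14e-11 by edgeR's quasi-likelihood test with Benjamini-Hochberg adjustment over all genes, as for each adjusted p here). Against TM siCtrl it was -1.95 ± 0.09 with siATF4-2 (adjusted p = 1.71e-15) and -2.82 ± 0.09 with siATF4-3 (adjusted p = 9.33e-19). Silencing PERK had a smaller effect on ASNS. TM siPERK-1 held 406.6, 444.4, 434.5 and 419.8 CPM and TM siPERK-3 390, 390.8, 414.6 and 373.1, all below TM siCtrl and above DMSO siCtrl. The log2 changes were -0.27 ± 0.08 with siPERK-1 (adjusted p = 0.0191) and -0.39 ± 0.08 with siPERK-3 (adjusted p = 0.00105). The siPERK-1 call was lost without TM siPERK-1 replicate 1 (adjusted p = 0.0563) or TM siCtrl replicate 2 (adjusted p = 0.0579). The inhibitor libraries held 558.8, 572.5, 538 and 556.3 CPM of ASNS, all above the highest TM siCtrl library. The difference of 0.11 ± 0.08 (95% interval -0.05 to 0.28, adjusted p = 0.321) was not called, but it was when those 8 libraries alone were fitted (adjusted p = 0.031).

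PCK2, the mitochondrial phosphoenolpyruvate carboxykinase, had the widest range of the 9, with 3.7 log2 units between its highest and lowest group means. Its level was 259.6, 265.3, 258.9 and 267.9 CPM in DMSO siCtrl and 721.3, 682.1, 758.2 and 693.5 in TM siCtrl. With ATF4 silenced it was 110.3, 96.58, 91.12 and 198.7 CPM (TM siATF4-2) and 56.4, 53.83, 50.49 and 84.91 (TM siATF4-3). All 8 of these libraries were below the DMSO libraries. PCK2 rose by 1.44 ± 0.17 with tunicamycin (adjusted p = 6.24e-08) and changed by -2.53 ± 0.17 with siATF4-2 (adjusted p = 3.33e-11) and -3.54 ± 0.19 with siATF4-3 (adjusted p = 1.38e-13). TM siPERK-1 held 564.8, 532.9, 589 and 503.1 CPM and TM siPERK-3 440.4, 504.4, 485.4 and 441.8, so both PERK siRNA groups lay wholly below TM siCtrl. The change of -0.61 ± 0.16 with siPERK-3 was called (adjusted p = 0.00736). The change of -0.38 ± 0.16 with siPERK-1 was not (95% interval -0.7 to -0.07, adjusted p = 0.0869), but it was when those 8 libraries alone were fitted (adjusted p = 2.01e-06) and by limma-voom (adjusted p = 0.00953). With the inhibitor PCK2 held 769.6, 813.9, 780.2 and 766.8 CPM, all above TM siCtrl, and the difference of 0.13 ± 0.16 (95% interval -0.18 to 0.45, adjusted p = 0.568) was called only when the inhibitor and TM siCtrl libraries were fitted alone (adjusted p = 0.0145). The cytosolic counterpart PCK1 was not testable, with 3 counts at most in a library.

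GPT2, the mitochondrial alanine aminotransferase, followed the same order of groups with smaller steps. It held 191.7, 201.5, 176.3 and 210.5 CPM in DMSO siCtrl and 316, 310, 316.3 and 294.7 in TM siCtrl. In TM siATF4-2 it was 117.5, 110.1, 99.98 and 144.4 CPM and in TM siATF4-3 87.57, 88.74, 86.19 and 103.7. No library of one of these conditions reached the range of another, apart from the overlap between the ATF4 oligos. GPT2 rose by 0.66 ± 0.07 with tunicamycin (adjusted p = 3.64e-09), and changed by -1.39 ± 0.08 with siATF4-2 (adjusted p = 3.7e-15) and -1.76 ± 0.08 with siATF4-3 (adjusted p = 1.01e-17). With PERK silenced its libraries lay between 223.7 and 276.8 CPM, below all of TM siCtrl. The changes were -0.23 ± 0.07 with siPERK-1 (adjusted p = 0.0211) and -0.33 ± 0.07 with siPERK-3 (adjusted p = 0.00104). The siPERK-1 call was lost without TM siCtrl replicate 1 (adjusted p = 0.0526), TM siCtrl replicate 3 (adjusted p = 0.0529) or TM siPERK-1 replicate 4 (adjusted p = 0.0751). The inhibitor libraries held 310.2, 330.4, 301.1 and 315.3 CPM, within or just above the TM siCtrl values (difference 0.02 ± 0.07, 95% interval -0.12 to 0.17, adjusted p = 0.841).

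GOT1, the cytosolic aspartate aminotransferase, rose with tunicamycin and was higher again when the inhibitor was added. The DMSO siCtrl libraries held 113.9, 114.6, 115.1 and 114 CPM and the TM siCtrl libraries 249, 260.5, 279.8 and 256.8. With the inhibitor GOT1 reached 411.2, 413.9, 411.4 and 380.7 CPM, above every library of every other group. It rose by 1.19 ± 0.07 with tunicamycin (adjusted p = 3.6e-17) and by a further 0.63 ± 0.07 with the inhibitor (adjusted p = 2.19e-09). Silencing either target lowered it. TM siPERK-1 held 213.7, 223, 242.1 and 191.2 CPM and TM siPERK-3 208.1, 229.4, 233.7 and 188, all below TM siCtrl, with changes of -0.27 ± 0.07 (adjusted p = 0.00272) and -0.28 ± 0.07 (adjusted p = 0.00136). TM siATF4-2 held 131.1, 142.7, 119 and 152.5 CPM and TM siATF4-3 95.23, 83.41, 86.01 and 89.61, which put the first oligo above and the second below DMSO siCtrl. Against TM siCtrl the changes were -0.94 ± 0.07 (adjusted p = 1.13e-13) and -1.56 ± 0.07 (adjusted p = 2.56e-19).

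CTH, the cystathionine gamma-lyase that releases cysteine, was low throughout, with 82 to 830 counts in a library. Its level was 19.38, 18.91, 16.47 and 19.18 CPM in DMSO siCtrl and 32.78, 34.17, 37.76 and 31.27 in TM siCtrl. With the inhibitor it reached 58.3, 61.61, 56.46 and 56.55 CPM. CTH, like GOT1, PYCR1 and, without a call, ASNS and PCK2, was thus higher in each inhibitor library than in any library of another group. With ATF4 silenced it was 7.449, 9.999, 8.418 and 12.01 CPM (TM siATF4-2) and 8.018, 8.177, 7.354 and 8.58 (TM siATF4-3), all below DMSO siCtrl. CTH rose by 0.88 ± 0.09 with tunicamycin (adjusted p = 5.99e-12) and by 0.78 ± 0.08 with the inhibitor (adjusted p = 2.81e-10). It changed by -1.84 ± 0.1 with siATF4-2 (adjusted p = 2.28e-18) and -2.08 ± 0.1 with siATF4-3 (adjusted p = 2.6e-20). The PERK siRNA libraries held 29.29, 29.02, 33.23 and 25.96 CPM (TM siPERK-1) and 23.94, 27.77, 27.67 and 22.22 (TM siPERK-3). Only the second group lay wholly below TM siCtrl, and its change of -0.42 ± 0.09 was called (adjusted p = 0.00024). The change of -0.21 ± 0.08 with siPERK-1 was not (95% interval -0.37 to -0.05, adjusted p = 0.0585). It was called by limma-voom, when the 8 libraries alone were fitted, and without TM siCtrl replicate 4 or TM siPERK-1 replicate 3, with adjusted p between 0.0236 and 0.0462.

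CBS, cystathionine beta-synthase, acts just before CTH and rose less with tunicamycin, and its difference with the inhibitor was not called. It held 338.7, 335.2, 344.7 and 389.4 CPM in DMSO siCtrl and 466.9, 411.4, 440.2 and 439.1 in TM siCtrl, with no overlap. The inhibitor libraries held 452.4, 409.5, 421.8 and 448.4 CPM, across the TM siCtrl range. CBS rose by 0.32 ± 0.07 with tunicamycin (adjusted p = 0.000136), and its difference with the inhibitor was -0.02 ± 0.07 (95% interval -0.16 to 0.11, adjusted p = 0.843). TM siPERK-1 held 384.6, 324.8, 347.5 and 314.6 CPM and TM siPERK-3 383.7, 380.6, 372.2 and 391.9, with changes of -0.36 ± 0.07 (adjusted p = 0.000217) and -0.2 ± 0.07 (adjusted p = 0.0289). Both groups lay below TM siCtrl and overlapped DMSO siCtrl. The siPERK-3 call was lost, with adjusted p of 0.0538 to 0.0936, without TM siCtrl replicate 1, TM siCtrl replicate 3, or any of TM siPERK-3 replicates 1, 2 and 3. TM siATF4-2 held 317.9, 264.5, 280.1 and 342.3 CPM and TM siATF4-3 265.1, 251.6, 240.8 and 293.7, with changes of -0.55 ± 0.07 (adjusted p = 6.84e-08) and -0.74 ± 0.07 (adjusted p = 1.01e-10).

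The 3 proline synthesis genes did not move together. PYCR1, the mitochondrial reductase, held 287.7, 324, 328 and 313.7 CPM in DMSO siCtrl and 473.3, 413.9, 475.6 and 442 in TM siCtrl, a rise of 0.53 ± 0.05 (adjusted p = 1.64e-11). With the inhibitor it held 535.7, 553.5, 540.6 and 571.6 CPM, higher than in any library with another treatment, a further rise of 0.29 ± 0.05 (adjusted p = 3.39e-05). With PERK silenced PYCR1 lay between 455.6 and 519.9 CPM, which overlapped TM siCtrl. The differences of 0.1 ± 0.05 with siPERK-1 (adjusted p = 0.152) and 0.09 ± 0.05 with siPERK-3 (95% interval -0.01 to 0.2, adjusted p = 0.208) were not called. TM siATF4-2 held 405, 338.5, 395.8 and 398.1 CPM and TM siATF4-3 331, 345.3, 324.7 and 350.1. PYCR1 was thus the member that fell least with ATF4 silenced, by 0.23 with siATF4-2 (SE 0.05, adjusted p = 0.000293) and by 0.42 with siATF4-3 (SE 0.05, adjusted p = 8.99e-09).

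ALDH18A1, which makes the precursor that PYCR1 reduces, went the opposite way with tunicamycin and with the ATF4 siRNAs. It held 216.1, 231.6, 227.3 and 200.4 CPM in DMSO siCtrl and 191, 194.9, 191.9 and 179.8 in TM siCtrl, and fell by 0.21 with tunicamycin (SE 0.05, adjusted p = 0.000355). With ATF4 silenced it rose to 291.9, 287.1, 282.2 and 244.7 CPM (TM siATF4-2) and 280.5, 285.9, 274.9 and 266.1 (TM siATF4-3), above every library of the other groups. The log2 change against TM siCtrl was 0.55 ± 0.05 with each oligo (adjusted p = 4.95e-12 and 2.39e-12). With PERK silenced its libraries lay between 184.7 and 203.1 CPM. The differences of 0.04 ± 0.05 (95% interval -0.06 to 0.14, adjusted p = 0.621) and 0.05 ± 0.05 (95% interval -0.05 to 0.15, adjusted p = 0.501) were not called. With the inhibitor ALDH18A1 held 208.8, 218.7, 208.5 and 197.7 CPM, a difference of 0.14 ± 0.05 (adjusted p = 0.0304). That call was lost in 5 of 16 alternative analyses: with no filter on low counts (adjusted p = 0.0562), and without TM PERKi siCtrl replicate 1, 2 or 3 or TM siCtrl replicate 4 (adjusted p between 0.0564 and 0.119).

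PYCRL, the cytosolic reductase, moved opposite to PYCR1 with tunicamycin. It held 53.84, 71.7, 71.8 and 67.32 CPM in DMSO siCtrl and 43.9, 35.24, 41.97 and 40.37 in TM siCtrl, and fell by 0.71 (SE 0.08, adjusted p = 1.93e-09). It was higher in each of the 4 siRNA groups than in TM siCtrl. TM siPERK-1 held 44.55, 49.5, 54.73 and 52.07 CPM and TM siPERK-3 45.43, 48.46, 49.96 and 56.04, a rise of 0.31 with each oligo (SE 0.08 and 0.09, adjusted p = 0.00532 and 0.00619). TM siATF4-2 held 58.37, 50.65, 64.54 and 55.65 CPM and TM siATF4-3 63.15, 64.49, 68.7 and 63.54, with rises of 0.51 ± 0.08 (adjusted p = 4.27e-06) and 0.69 ± 0.08 (adjusted p = 1.05e-08). The inhibitor libraries held 33.9, 32.8, 37 and 35.41 CPM, the lowest group mean, and overlapped TM siCtrl. That difference of -0.21 ± 0.09 (95% interval -0.38 to -0.04, adjusted p = 0.0587) was not called. It was called with upper-quartile scaling, in the fit of the inhibitor and TM siCtrl libraries alone and in the fit without TM siCtrl replicate 2, with adjusted p between 0.0167 and 0.0477.

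**Figure D2:**
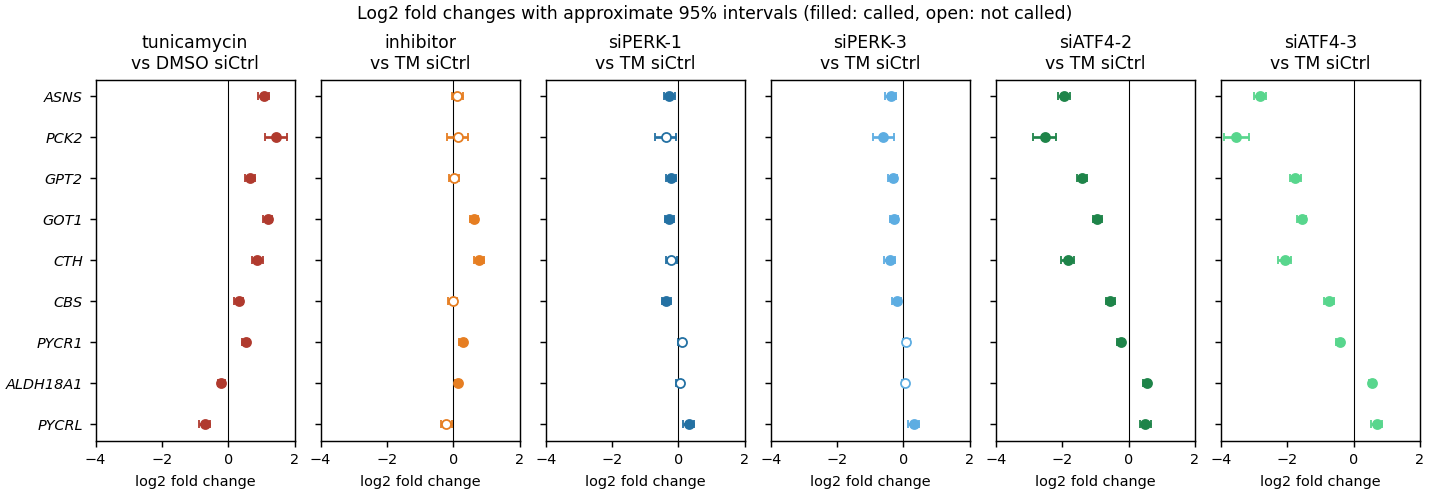
Log2 fold change (horizontal axis) of each gene (vertical axis) in 6 comparisons, tunicamycin against DMSO and the 5 other tunicamycin groups against TM siCtrl, with approximate 95% intervals; filled points passed the test and open points did not. ASNS, PCK2, GPT2 and CTH lie far left of 0 with both ATF4 siRNAs, from -1.39 to -3.54, and within 0.61 of 0 with the PERK siRNAs.

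Counted over the 9 genes, tunicamycin moved them all: 7 rose and 2 fell, and no gene's groups overlapped. In that comparison 69.0% of all tested genes were called (34.3% higher and 34.7% lower) and 61.0% had groups that did not overlap, so the count of members is read against a high background. The median log2 change was 0.66 over the members and 0.01 over all genes tested. With the inhibitor 4 rose (CTH, GOT1, PYCR1 and ALDH18A1) and 0 fell, where 35.7% of all genes were called (18.2% higher and 17.5% lower), and the medians were 0.13 and 0. When only the inhibitor and TM siCtrl libraries were fitted, 7 of the 9 were called, 6 higher and PYCRL lower, where that fit called 37.7% of all genes (19.0% higher and 18.7% lower).

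With siPERK-1, 4 of the 9 fell (ASNS, GPT2, GOT1 and CBS) and PYCRL rose, against 26.4% of all genes called (13.1% higher and 13.3% lower), with a median of -0.23 over members and 0 over all genes. With siPERK-3, 6 fell, PCK2 and CTH in addition, and PYCRL rose, against 26.8% called (13.1% higher and 13.7% lower), with medians of -0.28 and 0. Both ATF4 siRNAs lowered 7 of the 9 and raised ALDH18A1 and PYCRL. The background was 55.6% of genes called with siATF4-2 (28.4% higher and 27.2% lower) and 61.9% with siATF4-3 (31.2% higher and 30.7% lower). The members' medians were -0.94 and -1.56 against 0 over all genes for each oligo. The inhibitor and the 4 siRNA groups were each compared with the same TM siCtrl libraries, so these comparisons are not independent of one another or of the tunicamycin comparison.

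The inhibitor and the PERK siRNAs were set against each other directly, since both act on PERK, one on the kinase and the other on its RNA. Relative to the mean of the PERK siRNA groups, 7 members were higher with the inhibitor and PYCRL was lower, where 51.9% of all genes were called (25.8% higher and 26.1% lower). CTH differed most, by 1.09 ± 0.07 (adjusted p = 4.05e-16), followed by GOT1 at 0.9 ± 0.06 (adjusted p = 5.09e-15), PCK2 at 0.63 ± 0.14 (adjusted p = 0.000539) and ASNS at 0.44 ± 0.07 (adjusted p = 1.15e-05). GPT2, CBS and PYCR1 differed by 0.3, 0.26 and 0.19, and PYCRL by -0.52 ± 0.08 (adjusted p = 7.26e-07). In each of these 8 genes every inhibitor library lay outside the range of the 8 PERK siRNA libraries, which held for 32.5% of all genes. ALDH18A1 overlapped them, and its difference of 0.09 ± 0.04 (95% interval 0.01 to 0.18, adjusted p = 0.0753) was not called. It was called with DESeq2, with RLE size factors, with the compared groups alone and without TM PERKi siCtrl replicate 4.

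The ATF4 and PERK siRNAs were compared in the same way, averaging each pair of oligos. Relative to DMSO siCtrl the targets were silenced to unlike depths, ATF4 further than EIF2AK3. All 9 members differed, 7 lower and 2 higher, where 63.9% of all genes were called (32.3% lower and 31.6% higher). PCK2 was lower with ATF4 silenced by -2.54 ± 0.13 (adjusted p = 4.37e-14), ASNS by -2.05 ± 0.06 (adjusted p = 2.16e-19), CTH by -1.64 ± 0.07 (adjusted p = 1.11e-21), GPT2 by -1.29 ± 0.05 (adjusted p = 2.81e-18) and GOT1 by -0.98 ± 0.05 (adjusted p = 3.72e-18). PYCR1 and CBS differed by -0.42 and -0.36. ALDH18A1 was higher with ATF4 silenced by 0.5 ± 0.04 (adjusted p = 1.55e-15) and PYCRL by 0.29 ± 0.06 (adjusted p = 7.83e-05). ATF4 RNA itself was 1415 ± 40.4 CPM in TM siPERK-1 and 1158 ± 42.7 in TM siPERK-3, against 1511 ± 37.4 in TM siCtrl.

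Tunicamycin-treated cells with ATF4 silenced were also compared with unstressed cells. With siATF4-2, 6 members were below DMSO siCtrl and 3 above, where 59.7% of genes were called (30.0% lower and 29.7% higher). With siATF4-3, 6 were below and 1 above, where 57.4% were called (29.3% lower and 28.1% higher). PCK2 was lower than in DMSO by -1.08 ± 0.17 with siATF4-2 (adjusted p = 8.95e-06) and by -2.1 ± 0.18 with siATF4-3 (adjusted p = 1.03e-09). ASNS differed by -0.87 ± 0.09 (adjusted p = 3.35e-09) and -1.75 ± 0.09 (adjusted p = 1.18e-14). CTH, at -0.97 and -1.2, GPT2, at -0.73 and -1.09, and CBS, at -0.23 and -0.42, were also lower with both oligos. ALDH18A1 was higher than in DMSO by 0.34 ± 0.05 with each. GOT1 was above DMSO with siATF4-2 (0.25 ± 0.07, adjusted p = 0.00185) and below it with siATF4-3 (-0.37 ± 0.07, adjusted p = 2.9e-05). PYCR1 stayed above DMSO with siATF4-2 (0.29 ± 0.05, adjusted p = 8.48e-06), and its difference with siATF4-3 was not called (0.11 ± 0.05, adjusted p = 0.0803), although it was with those groups fitted alone (adjusted p = 0.0429). PYCRL was lower with siATF4-2 (-0.21 ± 0.08, adjusted p = 0.0267), a call lost in 7 of 17 alternative analyses with adjusted p of 0.0577 to 0.133. These were the compared groups alone, the fits without any one of DMSO siCtrl replicates 2, 3 and 4 or TM siATF4-2 replicates 2 and 4, and the fit without replicate 4 of both ATF4 oligos. With siATF4-3 it differed from DMSO by -0.03 ± 0.08 (95% interval -0.18 to 0.13, adjusted p = 0.808).

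Within each target the oligos were compared with each other. Between siPERK-1 and siPERK-3, 0 of the 9 members were called by edgeR, where 4.73% of all genes were; DESeq2 and limma-voom also called 0. CTH and CBS had an unadjusted p under 0.05, 2 of 9, as did 16.4% of all genes. The largest differences between them were those of PCK2 (0.23 higher with siPERK-1, 95% interval -0.09 to 0.55) and CTH (0.21 higher, 95% interval 0.04 to 0.38). PCK2 was called when only those 8 libraries were fitted (adjusted p = 0.0124), where 5.02% of all genes were.

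The ATF4 oligos differed more. TM siATF4-2 kept more RNA of 5 members than TM siATF4-3, and less of none, where 14.7% of all genes were called (8.53% higher and 6.20% lower). The differences were 1.01 ± 0.18 for PCK2 (adjusted p = 0.000523), 0.87 ± 0.09 for ASNS (adjusted p = 2.89e-07), 0.62 ± 0.07 for GOT1 (adjusted p = 9.34e-08), 0.36 ± 0.08 for GPT2 (adjusted p = 0.00196) and 0.19 ± 0.05 for PYCR1 (adjusted p = 0.0141). ATF4 itself was 1.06 ± 0.16 higher in TM siATF4-2 (adjusted p = 6.1e-05). CTH (0.23 ± 0.12, adjusted p = 0.211), CBS (0.2 ± 0.07, adjusted p = 0.0568), PYCRL (-0.18 ± 0.08, adjusted p = 0.144) and ALDH18A1 (0 ± 0.05, 95% interval -0.1 to 0.1, adjusted p = 0.987) were not called. CBS was called by DESeq2 and without TM siATF4-2 replicate 2 or 3 or TM siATF4-3 replicate 4, with adjusted p of 0.0128 to 0.0489. When only those 8 libraries were fitted, PCK2 (adjusted p = 0.108) and GPT2 (adjusted p = 0.0689) lost their calls, and 12.9% of all genes were called. PYCR1 lost its call without TM siATF4-2 replicate 1 (adjusted p = 0.0588) or TM siATF4-3 replicate 3 (adjusted p = 0.0584).

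The residual ATF4 RNA varied among the ATF4 siRNA libraries, and several members varied beside it. In both groups replicate 4 held the most ATF4, 357.8 CPM in TM siATF4-2 against 176.6 to 221 in the other 3, and 140.4 CPM in TM siATF4-3 against 98.48 to 115.4. The same replicate held the most ASNS, PCK2, GPT2, CTH and CBS in both groups and the least ALDH18A1 in both. GOT1 was highest in replicate 4 of TM siATF4-2 and in replicate 1 of TM siATF4-3, and PYCR1 in replicate 1 of TM siATF4-2 and replicate 4 of TM siATF4-3. PYCRL was highest in replicate 3 of both groups. Replicate 4 also held the least ALDH18A1 in groups without an ATF4 siRNA. These were DMSO siCtrl (200.4 CPM), TM siCtrl (179.8), TM PERKi siCtrl (197.7) and TM siPERK-3 (184.7), but not TM siPERK-1. In DMSO siCtrl replicate 4 held the most ATF4 (722.9 CPM), PCK2, GPT2 and CBS, but the least ASNS (233.7). The parts of the residual ATF4 and of the replicate in the differences among the ATF4 siRNA libraries were not tested. Without replicate 4 of both oligos all 9 members were still called against TM siCtrl, with PCK2 at -2.85 and -3.74 and ASNS at -2.11 and -2.87.

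**Figure D3:**
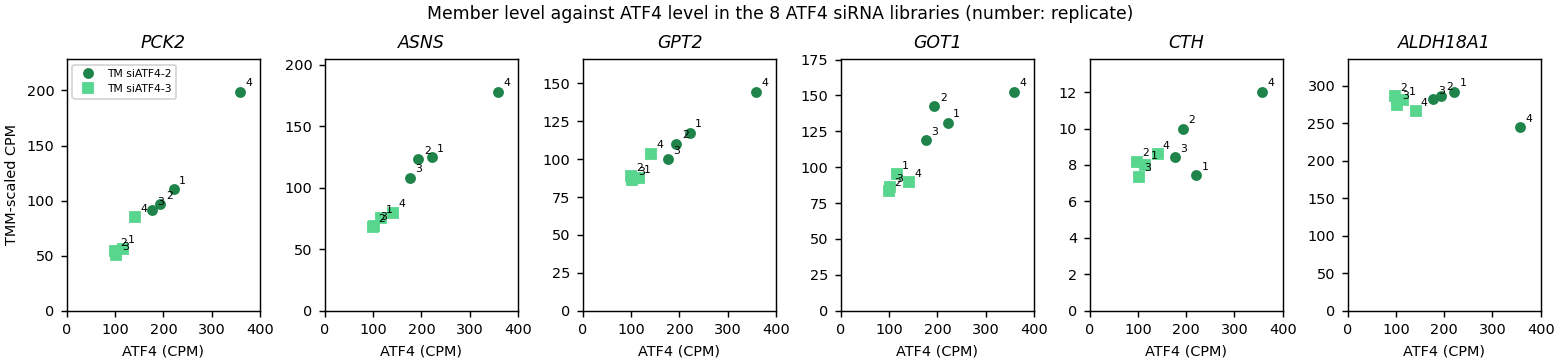
Level of 6 members (vertical axis, TMM-scaled CPM from 0) against that of ATF4 (horizontal axis, CPM) in the 4 libraries of TM siATF4-2 (circles) and TM siATF4-3 (squares), each numbered by replicate. The circle numbered 4, at 357.8 CPM of ATF4, lies highest for PCK2 (198.7 CPM) and ASNS (177.9 CPM) and lowest for ALDH18A1 (244.7 CPM). ALDH18A1 was also lowest in replicate 4 of groups without an ATF4 siRNA, DMSO siCtrl and TM siCtrl among them.

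GOT1 and GPT2 were also expressed as their share of the pair each forms with its paralogue, per kilobase of exon. GOT1 made up 27.1 ± 1.53% (SD, n = 4) of the GOT1 and GOT2 total in DMSO siCtrl and 46.7 ± 1.6% in TM siCtrl. With the inhibitor it reached 53.6 ± 1.45%, above GOT2, the mitochondrial aspartate aminotransferase. It stood at 31 ± 2.39% and 31.3 ± 2.25% with the PERK siRNAs and at 25.4 ± 3.23% and 17.1 ± 1.03% with the ATF4 siRNAs. GOT2 itself rose with both PERK siRNAs, by 0.7 ± 0.05 (adjusted p = 1.11e-12) and 0.66 ± 0.05 (adjusted p = 4.15e-12), and with both ATF4 siRNAs, by 0.43 ± 0.05 (adjusted p = 1.18e-08) and 0.52 ± 0.05 (adjusted p = 7.83e-11). With tunicamycin GOT2 was not called (-0.05 ± 0.05, adjusted p = 0.435).

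GPT2 made up 92.6% to 97.8% of the alanine aminotransferase pair. The cytosolic GPT was at 4.202 CPM or less on average and was called in none of the 6 comparisons against TM siCtrl or DMSO siCtrl.

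**Figure D4:**
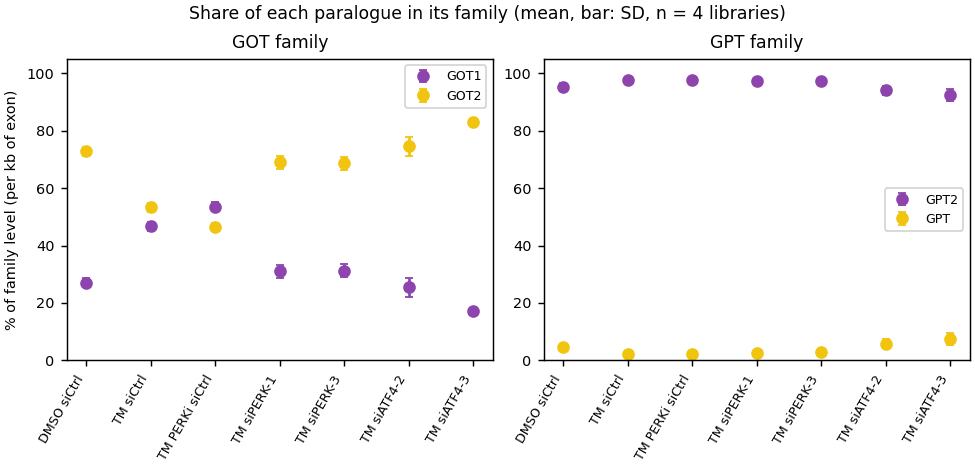
Share of each paralogue in the summed level of its pair per kb of exon (vertical axis, %), by group, as mean and SD of 4 libraries. GOT1 rises from 27.1% in DMSO siCtrl to 53.6% with the inhibitor and is at 17.1% in TM siATF4-3, while GPT2 stays between 92.6% and 97.8%.

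A list of 56 related genes of the same pathways was examined beside the members, and 44 of them could be tested. They moved in both directions, as did all genes tested, and their counts are read against the shares of all genes called higher and lower. With tunicamycin 11 rose and 19 fell (all genes 34.3% and 34.7%), with a median of -0.1. With the inhibitor 11 rose and 6 fell (all genes 18.2% and 17.5%). With siPERK-1 the counts were 9 and 9 (all genes 13.1% and 13.3%), and with siPERK-3 they were 7 and 8 (all genes 13.1% and 13.7%). With siATF4-2, 15 rose and 13 fell (all genes 28.4% and 27.2%). With siATF4-3 the counts were 16 and 15 (all genes 31.2% and 30.7%). The medians with the ATF4 siRNAs were 0.07 and 0.03.

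Some of these genes had large changes. BHMT, which remethylates homocysteine and so competes with CBS for it, rose from 0.1969 ± 0.114 to 3.206 ± 0.154 CPM with tunicamycin, a log2 change of 3.95 ± 0.3 (adjusted p = 6.29e-15). It changed by -1.35 ± 0.22 and -0.83 ± 0.21 with the PERK siRNAs (adjusted p = 9.1e-06 and 0.00285) and by -1.79 ± 0.24 and -2.93 ± 0.29 with the ATF4 siRNAs (adjusted p = 3.69e-08 and 1.67e-11), all at a low level. P4HA2, a collagen prolyl hydroxylase subunit whose exons overlap an antisense gene by 195 bases, rose from 27.5 ± 4.45 to 134.6 ± 5.21 CPM with tunicamycin (2.29 ± 0.1, adjusted p = 5.55e-17). It changed by -0.52 ± 0.09 and -0.64 ± 0.09 with the PERK siRNAs (adjusted p = 0.000133 and 1.14e-05) and by -1.53 ± 0.1 and -1.95 ± 0.1 with the ATF4 siRNAs (adjusted p = 8.72e-13 and 5.61e-15). PKM, pyruvate kinase, which uses phosphoenolpyruvate, went from 1942 ± 141 to 901 ± 28.9 CPM with tunicamycin (-1.11 ± 0.06, adjusted p = 1.48e-19). MPC2, a subunit of the mitochondrial pyruvate carrier that shares 70 exon bases with another gene, changed by -1.1 ± 0.06 with tunicamycin (adjusted p = 2.42e-17). It rose by 0.84 ± 0.06 and 1.06 ± 0.06 with the ATF4 siRNAs (adjusted p = 1.9e-13 and 1.94e-16). The PERK siRNAs moved MPC2 in opposite directions, by -0.36 ± 0.06 with siPERK-1 (adjusted p = 3.9e-05) and 0.23 ± 0.06 with siPERK-3 (adjusted p = 0.00546), and it differed between these oligos by -0.6 ± 0.06 (adjusted p = 2.72e-08).

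With the inhibitor the related genes with the largest changes were BCAT1, MAT1A, MAT2A and GLUL. BCAT1, a branched-chain aminotransferase, rose by 0.94 ± 0.26 (adjusted p = 0.00391), at 1.095 ± 0.236 CPM without and 2.11 ± 0.256 CPM with the inhibitor, and changed by -1.65 ± 0.38 and -2.37 ± 0.44 with the ATF4 siRNAs (adjusted p = 0.000319 and 1.06e-05). MAT1A rose by 0.62 ± 0.23 (adjusted p = 0.0315), and changed by -1.59 ± 0.32 and -2.08 ± 0.35 with the ATF4 siRNAs (adjusted p = 4.34e-05 and 2.24e-06). Its level was low, at 1.588 ± 0.289 CPM in TM siCtrl, 2.464 ± 0.805 with the inhibitor and 0.5195 and 0.3623 with the ATF4 siRNAs. MAT2A, which makes S-adenosylmethionine and shares 426 exon bases with another gene, changed by -0.51 ± 0.06 (adjusted p = 2.64e-09), and GLUL, glutamine synthetase, by -0.45 ± 0.05 (adjusted p = 2.73e-10). ASRGL1, an asparaginase, rose by 1.08 ± 0.19 with siATF4-2 (adjusted p = 2.55e-05) and 0.68 ± 0.19 with siATF4-3 (adjusted p = 0.00368). It rose by 0.55 ± 0.19 with siPERK-1 (adjusted p = 0.036), and its difference of 0.23 ± 0.2 with siPERK-3 was not called (adjusted p = 0.451). BCAT2 rose by 0.3 ± 0.07 and 0.37 ± 0.08 with the PERK siRNAs (adjusted p = 0.00218 and 0.000192). MTAP, which salvages methionine, rose by 0.49 ± 0.06 and 0.69 ± 0.06 with the ATF4 siRNAs (adjusted p = 2.58e-08 and 3.1e-12) and by 0.31 ± 0.06 and 0.26 ± 0.07 with the PERK siRNAs (adjusted p = 0.000305 and 0.00224).

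Likeness across the 7 groups was measured as the root mean square difference of centred mean log2 CPM, over 11246 genes. The closest pairs of members were PYCR1 and CBS (0.215), ALDH18A1 and PYCRL (0.252) and ASNS and PCK2 (0.279), and the most distant were PYCRL and PCK2 (1.567). The measure is not scaled to the range of a gene, so genes with small changes lie close. PYCR1 was called with the inhibitor (0.29) and CBS was not (-0.02). CBS was called with both PERK siRNAs (-0.36 and -0.2) and PYCR1 with neither (0.1 and 0.09). Among the 11246 genes searched, ATF4 was nearest to PCK2 (0.187). GPX8, TMEM154 and PSAT1 were nearest to ASNS (0.108, 0.149 and 0.173), and CECR1, TTC39B and MTHFD2 were nearest to CTH (0.19, 0.223 and 0.227). ALDH2, BLVRB and PANX2 were nearest to GPT2 (0.108, 0.116 and 0.117), and ZPLD1, ZNF222 and TUBE1 to GOT1 (0.094, 0.098 and 0.099). The first neighbours of the other members were PELO for PYCR1 (0.038), ADPRHL1 for CBS (0.041), MRPL3 for ALDH18A1 (0.027) and LUZP1 for PYCRL (0.042). The group means of these 4 members spanned 0.55 to 0.92 log2 units, a flatter pattern than those of the other 5.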

How the data were processed

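The libraries were strand-specific, per the labels' protocols. The authors deposited raw read counts per gene in 6 tables of 25370 lines, on build hg19. The submitters' processing notes name the aligner TopHat2 2.1.0, the counter featureCounts 1.5.0-p1 and, as a further tool, DESeq2 1.10.1. The strand setting of the counting is not given in the sources used. TM siCtrl appears in several tables with 0 differing values and entered once. The only line lacking a gene name, with 0 counts, was dropped.

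Counts were scaled by TMM (factors 0.937 to 1.1) and filtered with filterByExpr by group (minimum count 10, minimum total 15). One group-means fit of all 28 libraries was tested with edgeR 4.0.16 in R 4.3.3 (robust quasi-likelihood F-test, two-sided). P-values were adjusted over 14314 genes within each of 12 comparisons and called at 0.05. The SE is the absolute log2 change over the square root of F, and 95% intervals are approximate. Alternatives were RLE and upper-quartile scaling, other filters, DESeq2 1.42.0, limma-voom (limma 3.58.1), a replicate block, only the groups compared, and leaving out each library. Calls gained with the replicate block are given only in the last paragraph, not in the lists of alternatives above. The fit without replicate 4 of both ATF4 oligos was chosen after seeing the data. The tests were tried on simulated counts.

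Named were all 9 members, ATF4 and EIF2AK3, the 2 related genes that rose and the 2 that fell most in 6 comparisons, and the genes nearest each member in pattern. The paralogues GOT2, GPT and PCK1, and values of related genes in other comparisons, were added after their values were seen. One gene of the related list is not reported here and was left out of its counts. The members and lists were chosen with earlier results of these data known. Promoter windows are from RefSeq (GRCh38.p14), a build other than that of the counts.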

Additional observations from a re-analysis of the deposited data

Results flagged for a closer look

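In 4 of 63 sets of 4 libraries, each set being 1 member in 1 group, the gap between 1 library and the other 3 was above Dixon's 95% critical value. Chance alone flags about 1 set in 20. PYCR1 was 338.5 CPM in TM siATF4-2 replicate 2 and 395.8 to 405 CPM in the other 3. GPT2 was 103.7 CPM in TM siATF4-3 replicate 4 and 86.19 to 88.74 CPM in the others, and this library also held the most ATF4 of its group. GOT1 was 380.7 CPM in TM PERKi siCtrl replicate 4 and 411.2 to 413.9 CPM in the others. CTH was 16.47 CPM in DMSO siCtrl replicate 3 and 18.91 to 19.38 CPM in the others. Without these libraries the calls against TM siCtrl, or for CTH between TM siCtrl and DMSO siCtrl, were kept.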

How the results depend on the processing

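Of the 108 fold changes of members, 83 kept their direction and their side of the threshold under every alternative. Over 1890 alternative values, 1814 did so, 26 lost a call, 26 gained one and 24 changed sign. All 24 belong to 8 differences near 0 that were not called. Leaving out single libraries gave 0 to 0.04 for GPT2 and -0.05 to 0.01 for CBS with the inhibitor. Between the PERK oligos it gave -0.04 to 0.01 for ALDH18A1, -0.02 to 0.04 for PYCR1, -0.04 to 0.06 for PYCRL and -0.04 to 0.07 for GOT1. Between the ATF4 oligos it gave -0.03 to 0.05 for ALDH18A1, and for PYCRL between TM siATF4-3 and DMSO siCtrl -0.11 to 0.02. ALDH18A1 also turned sign to 0.01 between the PERK oligos with upper-quartile scaling, and between the ATF4 oligos to 0 with no filter on low counts and 0.03 without replicate 4 of both. When only the groups compared were fitted, 7 members were called with the inhibitor in place of 4 (37.7% of all genes in that fit), 1 between the PERK oligos in place of 0 (5.02%) and 3 between the ATF4 oligos in place of 5 (12.9%). The main fit instead gave each gene 1 spread over all 7 groups. PCK2 was 124.2 ± 50.3 CPM (SD) in TM siATF4-2 and 713.8 ± 33.9 in TM siCtrl, and ASNS 133.5 ± 30.5 and 514.2 ± 17.8. Over all genes, leaving out single libraries gave 392 to 627 calls between the PERK oligos (677 with all). Between the ATF4 oligos it gave up to 2105, and 1370 without replicate 4 of both (2109 with all). The causes were not tested.

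With a replicate block the PERK oligos gave 1195 calls over all genes. CTH with siPERK-1 (adjusted p = 0.034), PYCRL with the inhibitor (0.019), CBS between the ATF4 oligos (0.00836), ALDH18A1 between the inhibitor and the PERK siRNAs (0.0147) and PYCR1 between TM siATF4-3 and DMSO siCtrl (0.04) gained a call in edgeR. The block ended no call of a member. The labels do not say that the numbers pair the samples. Deviations of same-numbered libraries correlated at 0.02 to 0.3, above 0.1 in 15 of 40 pairs, and each of the 28 libraries correlated best with its own number, a hint from the data. CTH rested on 82 to 150 counts in each ATF4 siRNA library.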
